A study of Homo sapiens with 12 samples.

Results

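The genes described are 4 matrix metalloproteinases (MMP1, MMP7, MMP14 and MMP15), urokinase (PLAU), its receptor (PLAUR) and the tissue inhibitors of metalloproteinases TIMP1 and TIMP2. The 8 genes were taken by symbol from both tables of the study, which list 25540 genes in common, and all 8 were found. They were chosen with earlier results of these data known, so their levels, changes and calls are given as a description, without p-values, and nothing is supported with the calls.

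RNA was sequenced from LS411N, a human colon cancer line with an activating BRAF mutation, and from LS411N-BR, its derivative that tolerates BRAF inhibitors. The series title names MUC1-C and sensitivity to BRAF inhibition as its subject. Polyadenylated RNA went through the TruSeq Stranded mRNA preparation, with 3 libraries in each of 4 groups. All 4 groups carried an inducible short hairpin RNA against MUC1 and were resistant to puromycin. The first group was LS411N without doxycycline, with 0.1% DMSO as vehicle, and the second was LS411N with 500 ng/ml doxycycline. The other 2 groups were LS411N-BR without doxycycline, again with 0.1% DMSO as vehicle, and with doxycycline at the same dose. Both were grown with 4 µM of a BRAF inhibitor in the medium. No DMSO is listed for the treated groups of either line. LS411N was grown without the inhibitor, so an effect of the line and an effect of the drug cannot be told apart. No group without the hairpin received doxycycline, so effects of the drug itself and of MUC1 loss cannot be told apart either. The cultures were triplicates, and the sources used here do not say whether they were grown separately. The spread between libraries may therefore be technical.

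The values are TPM (transcript abundances summing to the same total in each library), which are scaled by gene length and library, and the sources used here give no read totals, so the depth is unknown. MUC1 fell in both lines, from 5.09 ± 0.875 to 0.922 ± 0.094 TPM in LS411N and from 3.97 ± 0.293 to 0.509 ± 0.166 TPM in LS411N-BR (mean ± SD, n = 3 throughout). LS411N without doxycycline replicate 3 stood apart. It had 51.2% of its TPM in protein-coding genes, against 40.6 and 40.7% in replicates 1 and 2, and values that rest on it are also given without it. Of 9 colon epithelial markers, 8 had a group mean of at least 1 TPM in every group. Of 12 fibroblast and endothelial markers, LUM alone reached 1 TPM, in LS411N-BR, and the list summed to between 0.508 and 4.44 TPM over the 12 libraries. Of 11 immune markers, CD68 and LYZ alone reached 1 TPM. The immune list summed to between 118 and 3087 TPM, nearly all of it LYZ and CD68, and the pan-leukocyte marker PTPRC did not exceed 0.00343 TPM in any library.

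Matrix metalloproteinases are zinc endopeptidases that are made as inactive proenzymes and cut collagens, laminins and surface proteins. MMP1 and MMP7 are secreted, whereas MMP14 and MMP15 are membrane-type enzymes that sit on the cell surface. Urokinase bound to its receptor turns plasminogen into plasmin, which degrades fibrin and can activate proenzymes of the family, and TIMPs bind and block the active metalloproteinases. In the colon, MMP7 is known as a product of tumour cells, whereas much of the urokinase and of the other family members comes from stromal cells.

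MMP1 and MMP7 lie in a cluster of 9 metalloproteinase genes on chromosome 11 (chr11:102520508-102955734, GRCh38, GENCODE 29). MMP7 spans chr11:102520508-102530753 and MMP1 chr11:102789920-102798160, both on the minus strand. MMP14 lies at chr14:22836557-22849027 and MMP15 at chr16:58025566-58046901, both on the plus strand. PLAU spans chr10:73909177-73917497 on the plus strand, and PLAUR chr19:43646095-43670547 on the minus strand. TIMP1 is at chrX:47582313-47586789 on the plus strand and TIMP2 at chr17:78852977-78925387 on the minus strand. On the opposite strand, WTAPP1 covers MMP1 and SYN1 covers TIMP1, and C10orf55 overlaps PLAU. The library kit keeps strand, but the sources used here do not say whether the counting used it. WTAPP1 had means of 0.0179 to 0.0684 TPM and SYN1 of 0 to 0.0124 TPM over the 4 groups. C10orf55 is not among the genes listed in common, so no level can be set beside that of PLAU. On the same strand, CEP295NL overlaps TIMP2 and RN7SL368P overlaps PLAUR. CEP295NL had means of 0.016 to 0.0564 TPM, and RN7SL368P is not among the genes listed in common.

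AP-1 (FOS and JUN dimers), PEA3-type ETS factors and TCF with beta-catenin are the textbook regulators of these promoters. RefSeq promoter windows from 250 bases before to 50 after the start (GRCh38.p14) were matched for 6 of the 8 genes, with MMP1 and TIMP2 unmatched. Both strands were searched for TGANTCA (AP-1), AGGAAG (PEA3/ETS) and CTTTGA (TCF). The AP-1 letters occurred in MMP7 and PLAUR, and also in MMP10, the neighbour of MMP1. In all 35116 windows of the table, 7.71% held the AP-1 letters, 33.6% the PEA3/ETS letters and 12.9% the TCF letters. The 3 AP-1 windows of 30 bases are shown 5′ to 3′ along the gene, with the matched letters in capitals. The match begins at position -67 in MMP7, at -186 in PLAUR and at -67 in MMP10, counted from the start.
MMP7, chr11:102530796-102530825, minus strand: aaacactcaaaTGAGTCAcctatttccaca
PLAUR, chr19:43670337-43670366, minus strand: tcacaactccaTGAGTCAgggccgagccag
MMP10, chr11:102780677-102780706, minus strand: aaacacatgcaTGAATCAtactgttggtga
The MMP7 window also held both TCF matches found among the 6 genes, at positions -194 and -108. They are shown because MMP7 is a classical target of beta-catenin in the intestine.
MMP7 at -194, chr11:102530924-102530953, minus strand: gaaaaaaaaatcCTTTGAaagacaaataca
MMP7 at -108, chr11:102530838-102530867, minus strand: taacacatacttTCAAAGttctgtagactc
The PEA3/ETS letters occurred at 2 places in MMP7 and at 1 each in PLAUR, TIMP1 and PLAU, in the last in 1 of its 2 windows. No match overlapped another. The MMP14 and MMP15 windows held none of the 3 motifs, which says only that these letters are absent from those 300 bases.

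MMP1, interstitial collagenase, cleaves fibrillar collagens. In LS411N it measured 0.665, 0.690 and 0.896 TPM without doxycycline and 7.50, 6.95 and 6.21 TPM with it. In LS411N-BR the untreated libraries held 3.07, 2.90 and 3.10 TPM and the treated ones 10.5, 10.4 and 9.85 TPM. Every treated library lay above every untreated library of its line, and the untreated LS411N libraries were all under 1 TPM. The means of 0.751 ± 0.127 and 6.88 ± 0.646 TPM in LS411N differ 9.17-fold, and those of 3.03 ± 0.105 and 10.2 ± 0.332 TPM in LS411N-BR differ 3.38-fold. On the log2(TPM + 1) scale used for all fold changes here, which understates changes of low genes, the rise was 2.17 ± 0.12 (limma SE) in LS411N and 1.48 ± 0.07 in LS411N-BR.

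MMP7, matrilysin, is a small secreted enzyme of epithelial cells that cuts matrix and surface proteins. It read 1.94, 2.03 and 3.59 TPM in untreated LS411N and 7.48, 5.92 and 7.09 TPM with doxycycline. The LS411N-BR libraries gave 1.94, 1.43 and 1.55 TPM untreated and 6.39, 5.74 and 6.501 TPM treated. Again no treated library overlapped the untreated ones, although replicate 3 of untreated LS411N was well above its group. Mean TPM rose 2.71-fold in LS411N and 3.79-fold in LS411N-BR, or by 1.18 ± 0.14 and 1.45 ± 0.07 on the log2 scale. Without replicate 3 of untreated LS411N the ratio was 3.45 for MMP7 and 10.2 for MMP1.

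**Figure D1:**
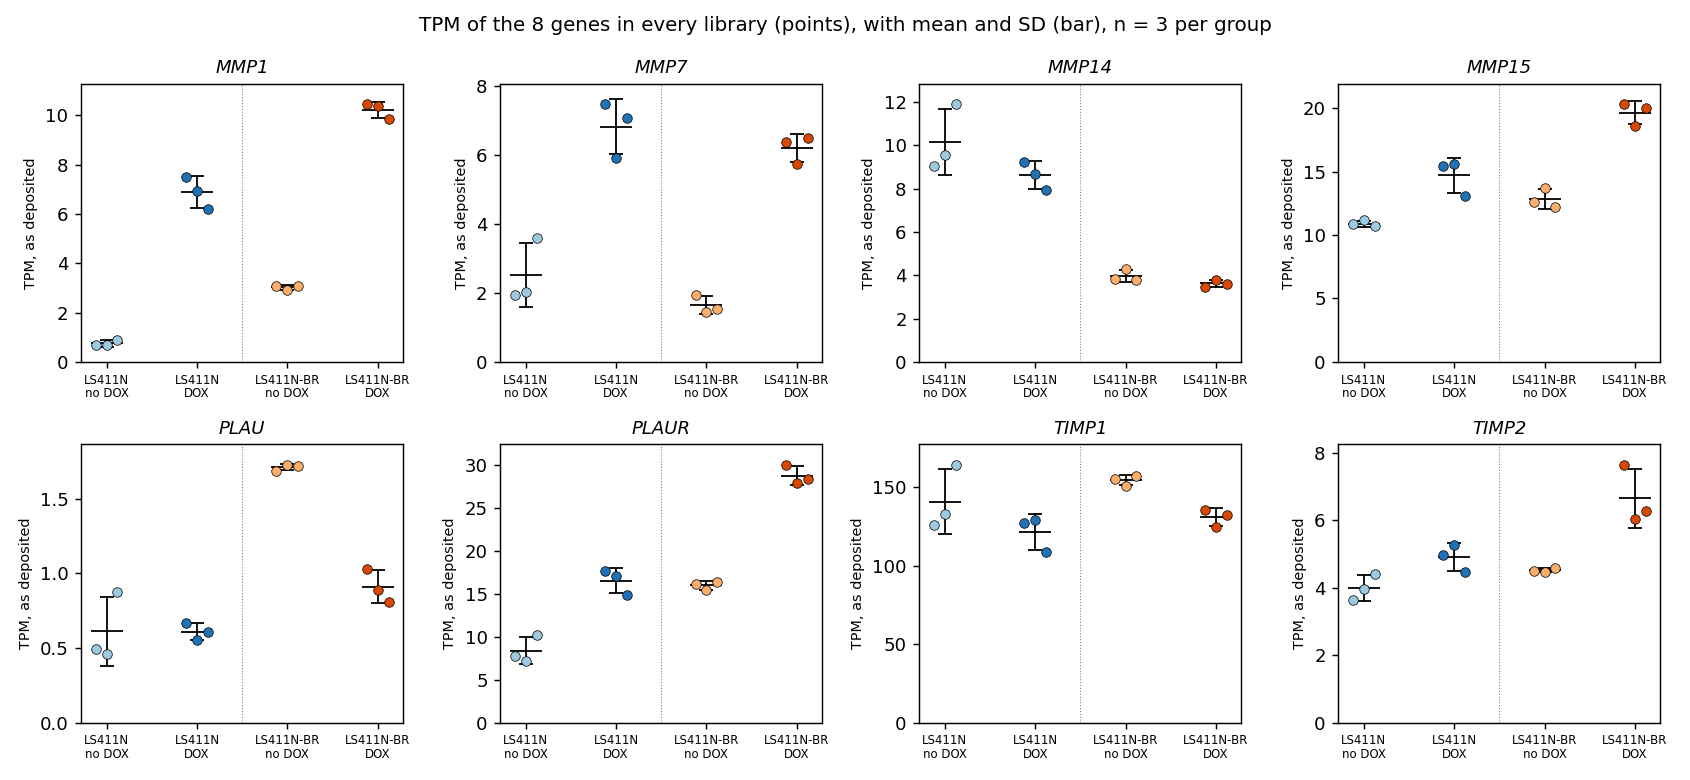
TPM of each of the 8 genes (y axis, linear, from 0) in every library of the 4 groups (x axis). Points are libraries and bars the mean and SD of 3 libraries. MMP1, MMP7, MMP15 and PLAUR sit higher with doxycycline in both lines, MMP14 overlaps between treatments in both, and PLAU is lower with doxycycline in LS411N-BR and overlaps in LS411N.

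MMP14, the membrane-type 1 enzyme, cleaves collagen at the cell surface and activates proMMP2. Its libraries gave 9.05, 9.56 and 11.9 TPM in untreated LS411N and 9.25, 8.70 and 7.93 TPM with doxycycline. In LS411N-BR the values were 3.82, 4.28 and 3.80 TPM untreated and 3.47, 3.80 and 3.60 TPM treated. Treated and untreated libraries overlapped in both lines. The log2 differences of -0.21 ± 0.14 and -0.10 ± 0.07 were not called, and the first was -0.10 without untreated replicate 3.

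MMP15, the membrane-type 2 enzyme, is a close relative of MMP14. Untreated LS411N held 10.8, 11.2 and 10.7 TPM and treated LS411N 15.4, 15.6 and 13.1 TPM. In LS411N-BR it went from 12.6, 13.7 and 12.2 TPM to 20.3, 18.6 and 20.1 TPM. The groups did not overlap in either line. Mean TPM was 1.35-fold higher in LS411N and 1.53-fold in LS411N-BR, and the log2 rises were 0.40 ± 0.14 and 0.58 ± 0.07. The call in LS411N was lost with 5 of the 6 libraries left out in turn, at log2 values of 0.35 to 0.47 over all 6. It held without untreated replicate 3.

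PLAUR, the urokinase receptor, is anchored to the membrane by a lipid. It measured 7.70, 7.21 and 10.2 TPM in untreated LS411N and 17.6, 17.1 and 14.9 TPM with doxycycline. LS411N-BR gave 16.1, 15.4 and 16.3 TPM without doxycycline and 29.95, 27.8 and 28.35 TPM with it. No library of one treatment overlapped the other in either line. As deposited, untreated LS411N-BR stood about where treated LS411N did, but each line has its own scale. With LS411N rescaled over the genes of both tables, untreated LS411N-BR lay below treated LS411N, at 15.96 against 21.05 TPM by mean. Mean TPM rose 1.98-fold and 1.8-fold, or by 0.91 ± 0.14 and 0.81 ± 0.07 on the log2 scale. Leaving out replicate 3 of untreated LS411N moved the first ratio to 2.22.

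PLAU, the ligand of that receptor and the protease of the pair, was the lowest of the 8 genes in every group but untreated LS411N-BR, where MMP7 was slightly lower. In LS411N it was 0.495, 0.459 and 0.878 TPM without and 0.668, 0.551 and 0.609 TPM with doxycycline. All 6 values are under 1 TPM, so the gene was not tested in that line. Without untreated replicate 3 the means were 0.477 and 0.609 TPM, and the libraries left did not overlap. In LS411N-BR it went from 1.69, 1.73 and 1.72 TPM to 1.03, 0.890 and 0.810 TPM, with no overlap. That is 1.88-fold lower with doxycycline, a log2 difference of -0.51 ± 0.08, while its receptor rose in the same libraries.

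TIMP1, a secreted inhibitor that blocks most secreted metalloproteinases but acts poorly on the membrane-type enzymes, was by far the most abundant of the 8. Untreated LS411N held 125.5, 132.6 and 164 TPM and treated LS411N 126.9, 129.3 and 108.5 TPM, and the groups overlapped. LS411N-BR gave 154.9, 150.8 and 157.3 TPM without doxycycline and 135.6, 124.7 and 132 TPM with it, without overlap. The log2 differences were -0.20 ± 0.15 in LS411N, not called, and -0.24 ± 0.06 in LS411N-BR, called lower. Without untreated replicate 3 the LS411N value was -0.09.

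TIMP2, which inhibits metalloproteinases and also carries proMMP2 to MMP14, went the other way from TIMP1. Its libraries were at 3.65, 3.95 and 4.41 TPM in untreated LS411N and at 4.98, 5.28 and 4.45 TPM in treated LS411N. In LS411N-BR they were at 4.50, 4.47 and 4.59 TPM and then at 7.64, 6.04 and 6.27 TPM. The groups did not overlap in either line, by a narrow margin in LS411N. The log2 difference of 0.24 ± 0.13 in LS411N was not called, and became 0.30 and was called without untreated replicate 3. In LS411N-BR TIMP2 rose 1.47-fold, by 0.46 ± 0.07 on the log2 scale.

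In LS411N, 7 of the 8 genes passed the filter of at least 1 TPM in at least 3 libraries, 4 were called higher (MMP1, MMP7, MMP15 and PLAUR) and 0 lower, with the same counts at an unadjusted limma p under 0.05. A call is a limma adjusted p (Benjamini-Hochberg over all genes tested) under 0.05. The background in LS411N was 9.75% higher and 3.43% lower, or 13.2% called in all, of 11281 genes. In LS411N-BR all 8 genes were tested, 5 were called higher (the same 4 and TIMP2) and 2 lower (PLAU and TIMP1). There the background was 56.1% higher and 11.1% lower, or 67.2% in all, of 11322 genes. Since these contrasts were in view when the genes were chosen, nothing is read from the members' counts against these shares. MMP1 entered the test in LS411N only through the treated libraries, with 0 of 3 untreated ones at 1 TPM, and PLAU in LS411N-BR through the untreated ones, with 1 of 3 treated at 1 TPM. The filter thus favoured the direction of both calls.

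The scaling of the libraries bears on the small changes. Median-of-ratios rescaling moved the median log2 change of all genes in LS411N-BR from 0.18 to -0.0018, and the share of calls that were higher from 83.5 to 50.1%. In LS411N that share went from 74 to 54.1%. Relative to the median of all genes as deposited, the changes in LS411N-BR were 1.30 for MMP1, 1.27 for MMP7, 0.40 for MMP15, 0.63 for PLAUR and 0.28 for TIMP2. On the same footing MMP14 was at -0.28, TIMP1 at -0.42 and PLAU at -0.69. After rescaling, MMP14 was called lower in both lines, at -0.28 in LS411N and -0.27 in LS411N-BR, and TIMP1 was called lower in LS411N as well, at -0.28. All other members kept the direction and the call they had as deposited, with 18.8% of genes then called higher and 16% lower in LS411N, and 32.3 and 32.2% in LS411N-BR.

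**Figure D2:**
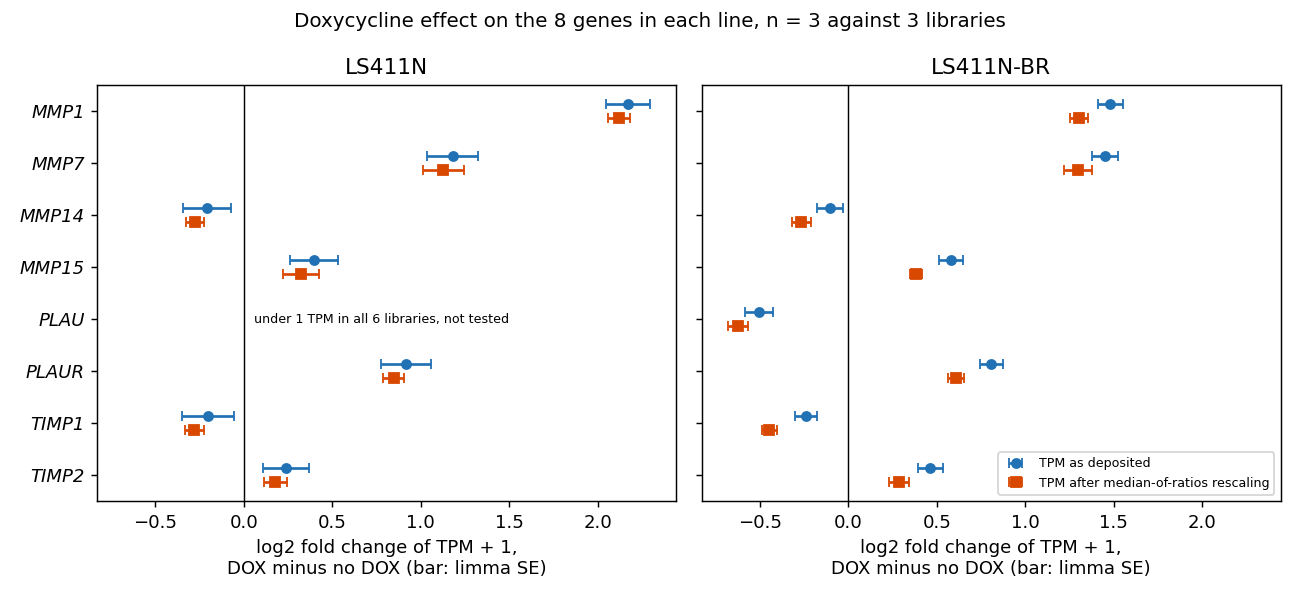
Log2 fold change of TPM + 1, doxycycline minus no doxycycline (x axis), for the 8 genes (y axis) in each line, with the limma SE as bars. Circles are TPM as deposited and squares TPM after median-of-ratios rescaling. MMP1 and MMP7 lie farthest to the right in both lines, and the rescaled values lie to the left of the deposited ones for every gene plotted.

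Ratios of genes within a library do not depend on its scaling. PLAUR to PLAU went from 15.5, 15.7 and 11.6 to 26.3, 31.0 and 24.4 in LS411N, and from 9.55, 8.93 and 9.49 to 29.04, 31.3 and 35.0 in LS411N-BR. The receptor thus exceeded its ligand in every library, by the most with doxycycline. TIMP1 to TIMP2 fell from 35.0 ± 1.90 to 24.8 ± 0.621 in LS411N and from 34.1 ± 0.335 to 19.8 ± 1.81 in LS411N-BR, with no overlap between treatments. MMP15 to MMP14 went from 1.09 ± 0.165 to 1.70 ± 0.0758 in LS411N and from 3.23 ± 0.0516 to 5.44 ± 0.495 in LS411N-BR. For MMP1 to MMP7, the ratio was 0.311 ± 0.0533 and 1.02 ± 0.149 in LS411N, whereas the treated and untreated LS411N-BR libraries overlapped, at 1.65 ± 0.148 and 1.87 ± 0.245. The ratio of TIMP1 to MMP14 moved little with doxycycline, from 13.8 ± 0.0499 to 14.1 ± 0.674 in LS411N and from 39.1 ± 3.32 to 36.2 ± 3.19 in LS411N-BR, with overlapping libraries in each line.

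**Figure D3:**
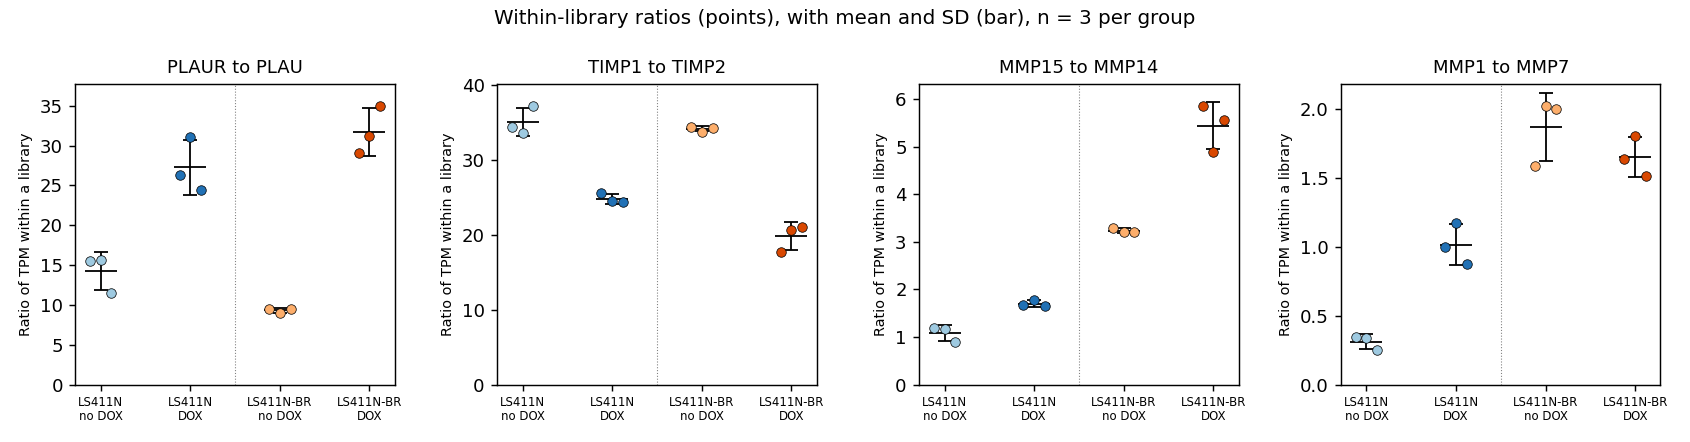
Ratio of the TPM of gene pairs within each library (y axes, linear, from 0) for the 4 groups (x axis), with libraries as points and the mean and SD of 3 libraries as bars. PLAUR to PLAU and MMP15 to MMP14 are higher with doxycycline and TIMP1 to TIMP2 is lower, without overlap, in both lines, while MMP1 to MMP7 overlaps between treatments in LS411N-BR.

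The summed TPM of the 4 metalloproteinases rose from 24.3 ± 2.41 to 37.0 ± 2.68 in LS411N and from 21.4 ± 0.843 to 39.7 ± 1.07 in LS411N-BR. Their makeup shifted as well. MMP14 made up 41.7 ± 2.01% of that sum in untreated LS411N and 23.3 ± 0.160% with doxycycline, against 18.5 ± 0.664 and 9.14 ± 0.676% in LS411N-BR. The share of MMP1 went from 3.07 ± 0.208 to 18.6 ± 0.420% in LS411N and from 14.1 ± 1.02 to 25.8 ± 1.17% in LS411N-BR. MMP15 was the largest part in the means of all 4 groups, at 39.7 to 59.7%, and MMP7 took 7.66 to 18.5%. The 2 inhibitors summed to more than the 4 enzymes in every library, with group means of 126.5 to 158.9 TPM.

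**Figure D4:**
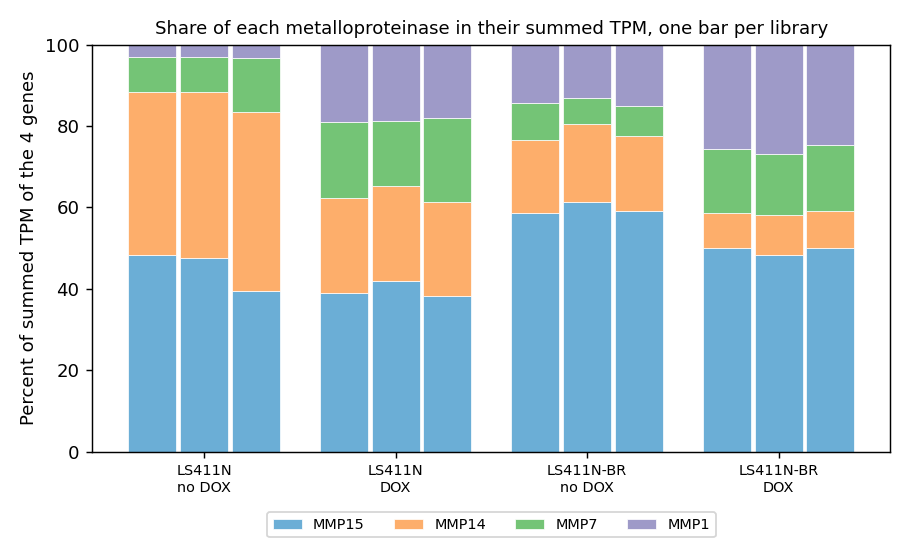
Share of MMP15, MMP14, MMP7 and MMP1 in their summed TPM (y axis, percent, 0 to 100), with a stacked bar for each of the 12 libraries, grouped by line and treatment (x axis). The MMP14 part is smaller and the MMP1 and MMP7 parts larger with doxycycline in both lines.

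Whether doxycycline acted differently in the lines was asked with an interaction term fitted by limma over the 12 libraries, written as LS411N-BR minus LS411N. Of 11674 genes, 1.39% had a higher and 0.728% a lower call, 2.12% in all. The members were chosen with earlier results known, so their differences are a description too. Among the 8 genes, 2 were called, both lower: MMP1 at -0.69 ± 0.13 and PLAU at -0.51 ± 0.14. MMP1 started higher and rose by a smaller ratio in LS411N-BR, and PLAU was lower with doxycycline there while its LS411N libraries overlapped. The MMP1 value stayed between -0.75 and -0.63 with each library left out. The PLAU call was lost in 11 of 12 such fits, at values of -0.63 to -0.45. The remaining differences were 0.27 ± 0.19 for MMP7, 0.19 ± 0.13 for MMP15, 0.11 ± 0.14 for MMP14, -0.11 ± 0.15 for PLAUR, 0.23 ± 0.14 for TIMP2 and -0.03 ± 0.15 for TIMP1. None of these was called. With median-of-ratios rescaling the calls over all genes went from 247 to 1188, of which 65.6 and 42.9% were higher, and the calls of MMP1 (-0.85) and PLAU (-0.60) were kept.

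Levels of the lines can only be set side by side, since each line has its own table with its own scale. For this the LS411N values were rescaled over the genes that both tables list, and no test was made. MMP14 had 12.97 ± 1.67 TPM in untreated LS411N against 3.97 ± 0.269 TPM in untreated LS411N-BR, or 3.27-fold more in LS411N. With doxycycline the ratio was 3.03. MMP1 was 3.16-fold and PLAU 2.21-fold higher in untreated LS411N-BR, and PLAUR 1.5-fold. MMP7 was 1.95-fold higher in LS411N. Without untreated replicate 3 of LS411N the untreated ratios were 3.04 for MMP14 and 1.56 for MMP7 in favour of LS411N, and 3.45 for MMP1, 2.77 for PLAU and 1.66 for PLAUR in favour of LS411N-BR. Which gene differed most on this scale, MMP14 or MMP1, thus turned on that library. It turned on the rescaling as well. As deposited, the untreated means of LS411N and LS411N-BR were 0.751 and 3.03 TPM for MMP1, a wider ratio than the 10.2 and 3.97 TPM for MMP14. With doxycycline these ratios were nearer to 1, at 1.17 for MMP1, 1.17 for PLAU with overlapping libraries, 1.36 for PLAUR and 1.4 for MMP7 in favour of LS411N. On this scale TIMP1 was 1.16-fold higher in untreated LS411N and 1.19-fold in treated LS411N, whereas MMP15 overlapped between the lines under both conditions. The direction for TIMP1 turned on the rescaling, which raised the LS411N values. As deposited its LS411N means were the lower ones, at 140.7 against 154.3 TPM untreated and 121.6 against 130.8 TPM treated.

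Ordered by mean on that scale, MMP1 ran from untreated LS411N through untreated LS411N-BR and treated LS411N to treated LS411N-BR. No neighbours in that order overlapped. MMP7 ran from untreated LS411N-BR through untreated LS411N and treated LS411N-BR to treated LS411N, again without overlap. For MMP14 the order was treated and untreated LS411N-BR, which overlapped, then treated and untreated LS411N, which on this scale were apart by no more than the gap from 11.5 to 11.6 TPM. PLAUR rose through untreated LS411N, untreated LS411N-BR, treated LS411N and treated LS411N-BR, with no overlap. In the PLAU order the 2 LS411N groups and treated LS411N-BR overlapped, below untreated LS411N-BR. For TIMP1, treated LS411N-BR was lowest and untreated LS411N highest, and treated LS411N overlapped with both untreated groups. For TIMP2 the order was untreated LS411N-BR, untreated LS411N, treated LS411N and treated LS411N-BR, where the treated groups overlapped. MMP15 overlapped between the untreated groups and between the treated groups, and the treated stood above the untreated.

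Over the 12 libraries, after centring each gene on the mean of its line, PLAUR followed MMP1 (Pearson r = 0.97) and MMP7 (r = 0.97), and MMP15 followed TIMP2 (r = 0.92). MMP14 and TIMP1 followed each other (r = 0.83), and PLAU ran opposite to MMP15 (r = -0.71). These are descriptions over libraries that share the treatment contrast and the library scaling, with n = 12. Among all genes with a mean of at least 5 TPM, the closest to MMP1 were CEACAM6 (r = 0.997), a cell adhesion glycoprotein, and COL17A1 (r = 0.995), the hemidesmosome collagen. MMP7 was nearest to SLPI (r = 0.993) and CADPS (r = 0.992), and PLAUR to KRT19 (r = 0.996) and SH3BGRL3 (r = 0.995). The nearest genes were C1QTNF1 and SLC27A4 for MMP15 (0.993 and 0.991), FARSA and MLX for TIMP2 (0.981 for each), TCAF1 and MAGED2 for MMP14 (0.964 and 0.963), DHRS4-AS1 and TMEM106C for TIMP1 (0.969 and 0.961) and ATP2C2 and NEMP2 for PLAU (0.961 and 0.952). So many genes followed the treatment that 582 had r above 0.9 with MMP1 and 1435 with MMP7, but 71 with MMP14 and 30 with PLAU.

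Most of the rest of the metalloproteinase family measured well under 1 TPM. Of 19 other members, 1 was tested in LS411N and 3 in LS411N-BR. MMP2 and MMP9, the gelatinases, MMP3, which can activate proMMP1, and MMP13, a further collagenase, had means of at most 0.0708 TPM in all groups. MMP10, stromelysin 2 and also an activator of proMMP1, lies next to MMP1. Its means went from 0.11 to 0.485 TPM in LS411N and from 0.0651 to 0.694 TPM in LS411N-BR, all under the filter and so not tested. MMP11, stromelysin 3, fell from 2.04 to 1.43 TPM in LS411N-BR (log2 change -0.33 ± 0.08, limma adjusted p = 5.6e-05). In LS411N it read 1.67 and 1.17 TPM (-0.30 ± 0.12, limma adjusted p = 0.084). There MMP11 was called lower without untreated replicate 3 (-0.25 ± 0.08) and after median-of-ratios rescaling (-0.35 ± 0.07). MMP24, a membrane-type enzyme, rose in LS411N-BR from 1.40 to 2.52 TPM (0.55 ± 0.08, limma adjusted p = 3.6e-12), and was at 0.0623 and 0.129 TPM in LS411N. MMP17, another membrane-type enzyme, went from 1.17 to 0.908 TPM in LS411N-BR (-0.19 ± 0.08, limma adjusted p = 0.028), where it passed the filter only through the untreated libraries, and read 0.721 and 0.699 TPM in LS411N. Of the 4 other inhibitors, TIMP4 alone was tested, and was called in neither line as deposited. Without untreated replicate 3 TIMP4 was called higher in LS411N (0.43 ± 0.07), where 53% of all genes were. TIMP3 and RECK had no more than 0.0069 TPM by mean.

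In plasminogen activation, several cell-surface docking proteins rose. PLG, plasminogen itself, was listed at 0 in all 6 LS411N libraries and had a mean of at most 0.0085 TPM elsewhere. The widely expressed cathepsin gene CTSL was also listed at 0 in all 12 libraries, so a listed 0 is not read as absence. PLAT, the tissue-type activator, had means of at most 0.0673 TPM, and SERPINB2, an inhibitor of urokinase, of at most 0.133 TPM. Of the 14 genes of that list, 7 were tested in each line, with 4 called higher in LS411N and 5 in LS411N-BR, and 0 lower in either, also at an unadjusted limma p under 0.05. The share of all genes called higher was 9.75% in LS411N and 56.1% in LS411N-BR. Without untreated replicate 3, 6 were called higher in LS411N, where 53% of all genes were. Median-of-ratios rescaling gave 4 higher and ENO1 lower in LS411N-BR, beside 32.3% higher and 32.2% lower over all genes. S100A10, which binds plasminogen with ANXA2, rose from 189.9 to 340.7 TPM in LS411N (0.84 ± 0.14, limma adjusted p = 2.4e-05) and from 160 to 305.6 TPM in LS411N-BR (0.93 ± 0.06, limma adjusted p = 1.2e-49). ANXA2 rose from 501.2 to 674.9 TPM and from 420.9 to 681 TPM. SERPINE2, protease nexin 1, which can inhibit urokinase, rose from 5.38 to 9.12 TPM (0.70 ± 0.15, limma adjusted p = 0.00052) and from 13.1 to 27.02 TPM (0.99 ± 0.07, limma adjusted p = 2.9e-49). KRT8, a keratin that can bind plasminogen at the cell surface, rose in both lines, from 635.5 to 953.1 TPM in LS411N. The median log2 change of the list was 0.44 in LS411N and 0.64 in LS411N-BR, beside 0.08 and 0.18 over all genes. Since all lists were chosen with earlier results known, list counts and medians are descriptions, and nothing particular to a list is read from them. The very small p-values of LS411N-BR come with a spread that limma took wholly from its trend.

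The urokinase receptor signals through integrins and EGFR. Of 14 such partners, 8 were tested in each line, with 2 called higher and 0 lower in LS411N (4 and 1 at an unadjusted limma p under 0.05). In LS411N-BR the calls were 4 higher and 1 lower, or 3 higher and 3 lower after median-of-ratios rescaling. That is near the shares over all genes there, 56.1% higher and 11.1% lower, or 32.3 and 32.2% after rescaling, and the share higher in LS411N was 9.75%. ITGB6 rose in both, from 1.29 to 2.36 TPM (0.57 ± 0.12, limma adjusted p = 0.00087) and from 3.12 to 4.65 TPM (0.46 ± 0.07, limma adjusted p = 1.7e-09). ITGA3 rose in LS411N, from 9.91 to 13.99 TPM, and ITGB5 in LS411N-BR, from 10.4 to 14.7 TPM. ITGA6, the most abundant integrin of the list, fell in LS411N-BR from 300.3 to 220.1 TPM (-0.45 ± 0.06, limma adjusted p = 2.3e-12), and read 384.8 and 292.8 TPM in LS411N (-0.38 ± 0.15, limma adjusted p = 0.087). Without untreated replicate 3, 6 of the 8 were called higher in LS411N and 1 lower, where 53% of all genes were called higher and 6.32% lower.

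Proteases that process these proteins had 0 calls in LS411N, where 13.2% of all genes were called, and 7 in LS411N-BR, where 67.2% were. The lines were not shown to differ here, since the interaction called none of those tested, and the result in LS411N turned on its untreated replicate 3, without which 53% of all genes were called higher. FURIN, PCSK5, PCSK6 and PCSK7, the convertases that can cut the propeptide of membrane-type metalloproteinases, gave 0 limma calls of 4 in LS411N, also 0 at an unadjusted p under 0.05, but 3 higher without untreated replicate 3. In LS411N-BR 3 were called higher (after median-of-ratios rescaling 2 higher and FURIN lower), with PCSK5 from 2.08 to 3.60 TPM (0.58 ± 0.07, limma adjusted p = 7.3e-14), PCSK7 from 6.68 to 8.77 TPM and PCSK6 from 5.37 to 6.48 TPM. Of 14 ADAM, ADAMTS and iRhom genes, 6 were tested in LS411N, with 0 limma calls, 2 higher at an unadjusted p under 0.05 and 4 called higher without untreated replicate 3. In LS411N-BR 7 were tested, with 3 higher and 1 lower, a smaller share higher than the 56.1% of all genes, or 2 higher and 4 lower after median-of-ratios rescaling. ADAM10, the main constitutive sheddase, rose in LS411N-BR from 69.4 to 96.5 TPM, and RHBDF1, which guides ADAM17 to the surface, from 2.76 to 4.296 TPM. ADAMTS15 went there from 1.36 to 0.420 TPM (-0.73 ± 0.08, limma adjusted p = 1.4e-18), but it passed the filter only through the untreated libraries, where it is high. In LS411N it read 0.336 and 0.0989 TPM, not tested and without overlap.

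Among 17 membrane serine proteases, cathepsins and their inhibitors, 3 of 14 tested were called higher in LS411N and 12 of 15 in LS411N-BR, with 0 lower in either, also at an unadjusted limma p under 0.05. Over all genes 9.75 and 56.1% were called higher. Without untreated replicate 3 the LS411N count was 8, with 53% of all genes called higher. After median-of-ratios rescaling, 5 were higher and 3 lower in LS411N, and 8 higher and 3 lower in LS411N-BR. Over all genes 18.8% were then higher and 16% lower in LS411N, and 32.3 and 32.2% in LS411N-BR. SLPI, a secreted inhibitor of neutrophil elastase, rose from 59.5 to 130.9 TPM (1.15 ± 0.15, limma adjusted p = 1.5e-07) and from 66.4 to 151.6 TPM (1.18 ± 0.06, limma adjusted p = 3.6e-78). PRSS22, a tryptase that can activate pro-urokinase, went from 4.47 to 8.85 TPM (0.84 ± 0.14, limma adjusted p = 1.7e-05) and from 3.56 to 8.30 TPM (1.03 ± 0.07, limma adjusted p = 4.1e-46). TMPRSS4, a transmembrane serine protease, rose from 17.2 to 26.7 TPM in LS411N and from 27.2 to 39.4 TPM in LS411N-BR. SPINT1, the inhibitor of matriptase and hepsin, rose from 30.3 to 46.4 TPM in LS411N-BR.

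Of 19 matrix and surface proteins known as substrates, 9 of 16 tested were called higher and 0 lower in LS411N, also 0 lower at an unadjusted limma p under 0.05. For LS411N-BR the calls were 12 of 15 higher and 1 lower (SDC1), or 8 higher and 2 lower after median-of-ratios rescaling. All genes gave 9.75% higher in LS411N and 56.1% in LS411N-BR, the latter 32.3% after rescaling. The share lower in LS411N-BR was 11.1%, or 32.2% after rescaling. In LS411N 13 of 16 were called higher without untreated replicate 3, where 53% of all genes were. COL17A1, the most changed, went from 5.57 to 26.6 TPM (2.08 ± 0.14, limma adjusted p = 1.1e-15) and from 9.65 to 32.8 TPM (1.67 ± 0.07, limma adjusted p = 4.8e-137). LAMA3 and LAMB3, laminin chains of the basement membrane, rose in both lines. LAMA3 went from 1.59 to 3.47 TPM in LS411N (0.79 ± 0.12, limma adjusted p = 3.6e-06), and LAMB3 from 6.47 to 12.9 TPM in LS411N-BR (0.90 ± 0.07, limma adjusted p = 4.8e-38). LAMC1 rose in LS411N-BR from 10.0 to 19.8 TPM, and in LS411N from 11.4 to 15.4 TPM with overlapping libraries. FN1, fibronectin, rose in LS411N from 3.50 to 5.73 TPM (0.59 ± 0.13, limma adjusted p = 0.0014) but was under 0.11 TPM in every LS411N-BR library. The list's median log2 change was 0.44 in LS411N and 0.57 in LS411N-BR.

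Among 23 transcription factors named at these promoters in textbooks, 8 of 22 tested were called higher and 1 lower in LS411N, and 14 of 21 higher and 3 lower in LS411N-BR. Beside these stand 9.75% higher and 3.43% lower over all genes in LS411N, and 56.1 and 11.1% in LS411N-BR. Rescaling by median of ratios gave 7 higher and 4 lower in LS411N, beside 18.8% higher and 16% lower over all genes. In LS411N-BR it gave 11 higher and 6 lower, beside 32.3 and 32.2% over all genes. Leaving out untreated replicate 3 gave 12 higher and 3 lower in LS411N, beside 53 and 6.32% over all genes. Some AP-1 genes were among the higher ones: JUNB rose from 18.2 to 31.6 TPM (0.77 ± 0.14, limma adjusted p = 5.7e-05) and from 26.6 to 43.7 TPM (0.69 ± 0.06, limma adjusted p = 9.8e-26). In LS411N, FOSL1 (32.25 and 32.36 TPM), JUN (9.25 and 9.70 TPM) and FOSB were not called. FOSL1 and JUN were called higher in LS411N-BR, where FOSB was not tested. After median-of-ratios rescaling the FOSL1 call there was lost, at 0.09 ± 0.05, while JUN kept its call at 0.28 ± 0.06. FOS rose from 3.66 to 7.48 TPM and ATF3 from 5.38 to 9.64 TPM in LS411N-BR. Both were also called higher in LS411N, from 3.32 to 4.64 TPM for FOS and from 10.0 to 13.5 TPM for ATF3. After median-of-ratios rescaling the FOS call in LS411N was lost. The ETS factors split. ETS1 rose in LS411N from 0.897 to 1.68 TPM (0.51 ± 0.12, limma adjusted p = 0.002), with 1 of 3 untreated and all 3 treated libraries at 1 TPM, while ETS2, far more abundant, fell from 116.5 to 71.9 TPM (-0.68 ± 0.14, limma adjusted p = 0.00061). Of the other ETS genes listed, ELF3 was called higher in both lines. ETV4 was not called in LS411N (0.06 ± 0.14) and was called higher in LS411N-BR (0.55 ± 0.07). ETV5 was called in neither line as deposited, and was lower in LS411N-BR after median-of-ratios rescaling (-0.19 ± 0.04). EHF was called higher in LS411N-BR, but not after that rescaling. Without untreated replicate 3, ETV5 and EHF were called higher in LS411N. ETV1 was not tested. TCF7L2 rose in both lines. CTNNB1, beta-catenin, and TCF7 were called lower in LS411N-BR, at -0.27 and -0.29. In LS411N both were at -0.37, without overlap but not called as deposited. Both were called lower there after median-of-ratios rescaling and without untreated replicate 3. The median log2 change of the list was 0.11 in LS411N and 0.30 in LS411N-BR.

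**Figure D5:**
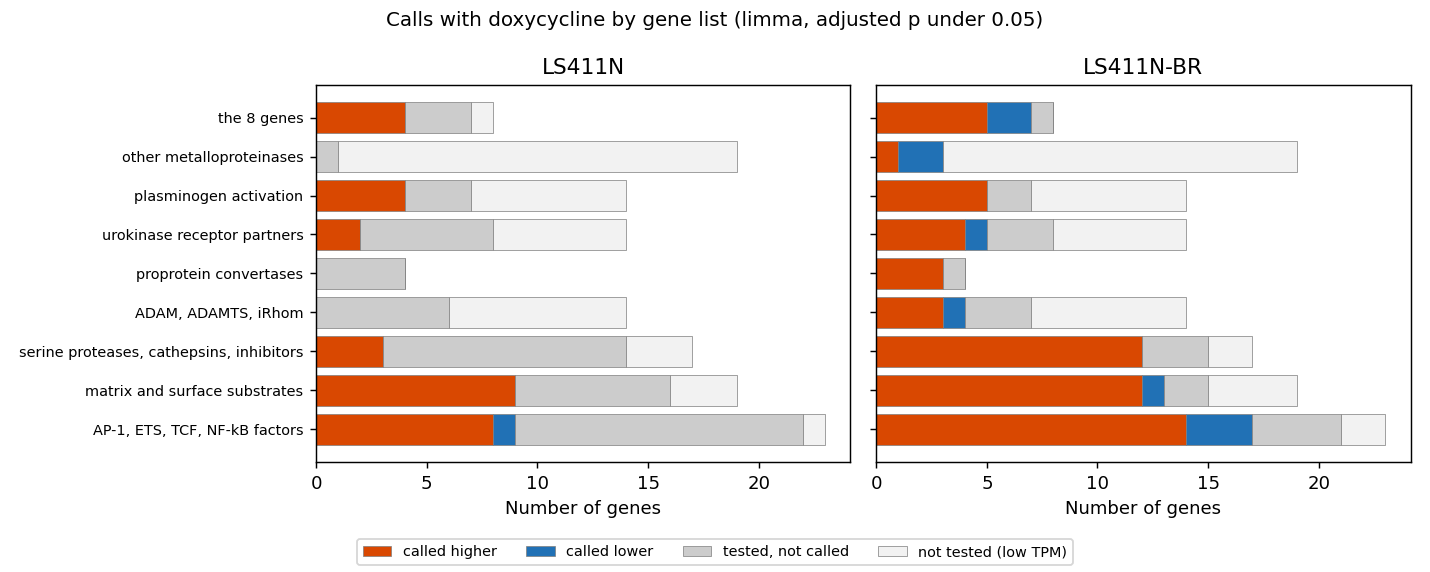
Number of genes (x axis) of each list (y axis) called higher, called lower, tested without a call, or not tested because of low TPM, in LS411N and LS411N-BR. The bar of other metalloproteinases is nearly all untested in both lines, and the serine protease and substrate lists hold 12 higher calls each in LS411N-BR.

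Some genes listed here as markers of other cell types moved with doxycycline as well. CD68, a lysosomal protein used as a macrophage marker, rose from 7.57 to 18.7 TPM in LS411N and from 34.8 to 70.7 TPM in LS411N-BR. LYZ, lysozyme, fell from 2589 to 1392 TPM in LS411N, and from 151 to 48.9 TPM in LS411N-BR. LUM rose from 1.31 to 2.71 TPM in LS411N-BR. The other 9 immune and 11 fibroblast and endothelial markers had means under 1 TPM in every group, with MS4A1 listed at 0 in all libraries of every group. In bulk RNA, a change in the makeup of the cells and a change of RNA per cell cannot be told apart. The part of these markers in the changes of the 8 genes was not tested, and PTPRC stayed near 0 in all 12 libraries.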

How the data were processed

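The authors deposited a table of gene-level TPM for each line, in which every library sums to 1000000. The submitters' processing notes name STAR, DESeq2 and the build GRCh38, without roles. How the TPM were made, on which annotation and from how many reads is not given in the sources used. The members and all gene lists were chosen with earlier results of these data known.

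A gene entered a test if 3 or more of the libraries compared held at least 1 TPM. Tests used limma 3.58.1 in R 4.3.3 (intensity trend, two-sided) on log2(TPM + 1), that is with a pseudocount of 1 TPM. Each line was fitted alone, with 3 against 3 libraries, and the difference between the lines was the interaction term over 12 libraries. Calls were made at adjusted p under 0.05 (Benjamini-Hochberg, over all genes tested). The p-values measure only the spread between these libraries. In LS411N-BR limma took that spread wholly from its trend over all genes, with no weight on a gene's own libraries. Without counts no interval for counting error can be given. The scripts were tested on simulated data.

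Named are the 8 members, MUC1, MMP2, MMP3, MMP9, MMP10, MMP13, TIMP3, RECK, PLAT, PLG, SERPINE2 and SERPINB2. From each list come up to 3 called genes per line with the smallest adjusted p whose groups do not overlap. Last come the 2 genes most like each member by Pearson r over the 12 libraries, among those tested in both lines with a mean of at least 5 TPM. Some genes that the rule takes are left out here and were not replaced. ANXA2 in LS411N, TIMP4, MMP17, ENO1, PLGRKT, CTSL, FURIN, SDC1, TCF7L2, CTNNB1, TCF7, CD68, LYZ, LUM and TMPRSS2 were named after their values were seen. So were FOSL1, JUN, FOSB, ELF3, EHF, ETV1, ETV4 and ETV5, as well as FOS, ATF3 and LAMC1 in LS411N and TMPRSS4 in LS411N-BR.

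Promoter windows came from RefSeq and gene positions from GENCODE 29. Alternatives were another pseudocount, other filters, rescaling by median of ratios, over protein-coding genes or over shared genes, other variance moderation, a replicate block, a spread from all 12 libraries, and leaving out each library in turn. After the data were seen, list counts without untreated LS411N replicate 3 and with median-of-ratios rescaling were added.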

Additional observations from a re-analysis of the deposited data

Results flagged for a closer look

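The doxycycline effect differed between the lines by the interaction term of limma (LS411N-BR minus LS411N, Benjamini-Hochberg adjusted over all genes) for 2 members and for 3 other listed genes. All were chosen with earlier results of these data known, so these are descriptions. MMP1 had a difference of -0.69 ± 0.13 (SE) on the log2 scale, with a rise in both lines. For PLAU the difference was -0.51 ± 0.14, with LS411N under 1 TPM throughout, and the call was lost in 11 of 12 fits that leave out a library and under 4 of 8 other settings. MMP24 differed by 0.46 ± 0.12 (adjusted p = 0.034), with means of at most 0.129 TPM in LS411N, so that it was tested only through LS411N-BR. Its TPM ratio with doxycycline was 2.07 in LS411N and 1.8 in LS411N-BR, so the difference on the log2(TPM + 1) scale shows no larger ratio in LS411N-BR. TMPRSS2, a transmembrane serine protease, differed by 0.63 ± 0.14 (adjusted p = 0.013), reading 8.40 and 7.12 TPM in LS411N without and with doxycycline and 13.6 and 18.6 TPM in LS411N-BR. FN1 differed by -0.54 ± 0.14 (adjusted p = 0.046), with means of 0.0407 and 0.078 TPM in LS411N-BR, where the pseudocount of 1 TPM holds any change near 0. Its TPM ratio was 1.64 in LS411N and 1.92 in LS411N-BR, the opposite order. The cause of these differences was not tested.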

How the results depend on the processing

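Of 404 values of the 8 genes under the alternatives, 368 kept direction and side of the threshold, 24 lost and 8 gained the call, and 4 reversed. The 1487 calls in LS411N became 806 without a filter, 3930 with median-of-ratios rescaling, 4027 over protein-coding genes, 2692 with the spread of all 12 libraries and 624 to 6637 with a library left out. Its 4 called members became 7 over protein-coding genes (5 higher, 2 lower) and 2 to 5 with a library left out. MMP1 drops below the filter there without any treated library, and the MMP15 call was also lost without a filter and at 5 TPM. The 7603 calls and 7 called members of LS411N-BR stayed within 1.5 times under all alternatives, with 6578 to 7703 genes when leaving out libraries, though TIMP1 was not called with the spread of all 12. The 247 differences between lines became 109 with a pseudocount of 0.1, 140 at 5 TPM, 1188 with median-of-ratios rescaling, 1025 over protein-coding genes and 125 to 1058 with a library left out. Of their 2 members, 1 (MMP1) stayed with a pseudocount of 0.1, no filter, the 5 TPM filter, shared-gene rescaling or no trend, and 1 to 2 with a library left out. Leaving out libraries put the line difference of TIMP1 at -0.15 to 0.0427 and of MMP14 at -0.0018 to 0.18, so that both reversed. Except where fewer libraries or genes were tested, the cause was not tested.

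Replicate numbers did not pair the samples (same-number r of 0.006 to 0.173 in LS411N and 0.003 to 0.023 in LS411N-BR). With the replicate block, calls in LS411N fell from 1487 to 900, in LS411N-BR to 6550, and rose to 279 for the difference. Among members, MMP15 in LS411N lost its call (0.40), and no other call changed. The depth is unknown, so the precision of genes under about 1 TPM, PLAU and MMP1 in untreated LS411N among them, cannot be stated.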
